A study of Mus musculus with 9 samples.

Results

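The Hedgehog genes described here are 9 genes of the mouse ovary: the ligands Dhh and Ihh, the receptor Ptch1, the decoy receptor Hhip, the signal transducer Smo, its downstream inhibitor Sufu, and the transcription factors Gli1, Gli2 and Gli3. They were picked by symbol from the 46078 genes of the deposited count table, where each symbol had a single row. All 9 were among the 16722 genes with enough counts to be tested. Hedgehog ligands are secreted proteins. Without ligand, Ptch1 keeps Smo inactive, and when a ligand binds Ptch1, Smo relays the signal through the primary cilium to the Gli factors, which Sufu otherwise restrains. In the ovary the ligands Dhh and Ihh are made by granulosa cells of growing follicles, while the cells that respond, and that raise Gli1, Ptch1 and Hhip as target genes of the pathway, lie mainly in the theca and stroma around the follicle.

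Whole ovaries were sequenced from 9 mice, 5 WT and 4 ERβKO, with 1 library per mouse. Both genotypes had the C57BL/6J background and are labelled untreated. The labels also carry a text on a high-fat or control diet with injections of an estrogenic ligand or vehicle, without saying which mouse received what. The ERβKO mice carry a deletion of exon 3 of Esr2 (estrogen receptor beta), made in the germline with a Rosa26-Cre deleter strain and kept by breeding heterozygous mice, so the loss was not limited to granulosa cells. The WT mice were offspring without Cre. The mice of all experiments were 4 to 20 weeks old, and no stage of the estrous cycle is given for these ovaries.

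The libraries held 12353740 to 18717510 counted fragments. Esr2 was counted over the whole gene, including the exons that the knockout allele keeps, and its log2 fold change of -0.02 (SE 0.24) does not check the genotype labels. WT replicate 2 stood apart. On the first principal component, with 35.9% of the variance, it lay at 9.43, while the other WT ovaries lay between -43.8 and -15.6 and the ERβKO ovaries between 19.4 and 35.4. Markers of granulosa, theca and luteal cells were present. The exception was the theca marker Insl3, with at most 5 counts in a library. Ovgp1, a marker of oviduct epithelium, was at 1294 FPKM or more in every library.

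Expression is given as FPKM, fragments scaled for gene length and for the mapped fragments of the library, in the order of the replicate numbers. A gene was called when edgeR (quasi-likelihood test, p-values adjusted by Benjamini and Hochberg over all genes tested) gave an adjusted p under 0.05, its absolute log2 fold change (ERβKO over WT) was over 0.4, and its mean FPKM was over 1 in at least 1 genotype. By this rule 1 of the 9 Hedgehog genes was called, and it was Dhh, higher in ERβKO ovaries. Among all genes tested, 1.72% were called and 0.915% were called as higher. At an unadjusted p under 0.05 the count was again 1 of 9, or 11.1%, beside 19.8% of all genes. A single called gene in a list of 9 shows nothing about the list as a whole.

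Dhh (desert hedgehog, ENSMUSG00000023000) is found on the minus strand of chromosome 15, from 98893031 to 98898540 in GRCm38, the build of all positions given here. It is best known as the Hedgehog ligand of the male gonad, where Sertoli cells secrete it, and of Schwann cells, and in the ovary it is made by granulosa cells. Dhh was at 3.31, 3.19, 5.79, 2.84 and 4.03 FPKM in the 5 WT ovaries. In the 4 ERβKO ovaries it was at 8.64, 9.05, 9.79 and 8.87 FPKM. The lowest ERβKO ovary lay above the highest WT ovary, and WT replicate 3 was the highest of its group. Such a separation of the FPKM ranges, in either direction, was found for 7.61% of all genes, and among the 9 Hedgehog genes for Dhh only.

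The counts behind these values were 141 to 318 fragments in WT and 434 to 587 in ERβKO libraries. Dhh rose 2.35-fold (95% interval 1.74 to 3.16), or by 1.23 on the log2 scale (SE 0.19), at an adjusted p of 0.0148 by edgeR. The exact permutation test over the ovaries gave a two-sided p of 0.0159, the smallest that 5 against 4 ovaries allow. With DESeq2, which calls 4.8% of all genes by the same thresholds, the adjusted p was 7.78e-07. The edgeR call ended without ERβKO replicate 2 (adjusted p = 0.0528) and without ERβKO replicate 4 (adjusted p = 0.0513), while the log2 fold change stayed at 1.25 in both. Without WT replicate 2, the library that stood apart, it was 1.17 with an adjusted p of 0.0132. In GENCODE M21, 12.4% of the exon length of Dhh is shared with Rhebl1, a gene on the same strand. Rhebl1 itself had a log2 fold change of 0.34 (adjusted p = 0.281, edgeR). The part of this overlap in the values of Dhh was not tested. An antisense gene, Gm49442, covers 25.2% of the exon length of Dhh. It has no row of its own among the counts, and the strand setting of the counting is not given in the sources used here.

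The bases just before the start of the ligand genes are shown because Dhh was called and Ihh was not. They are the 250 bases upstream of the start in RefSeq (GRCm38.p6), read 5′ to 3′ on the gene's strand, with GC boxes (GGGCGG, or CCGCCC on the other strand) in capitals. The windows are chr15:98898541-98898790 for Dhh and chr1:74951673-74951922 for Ihh, both on the minus strand.
Dhh: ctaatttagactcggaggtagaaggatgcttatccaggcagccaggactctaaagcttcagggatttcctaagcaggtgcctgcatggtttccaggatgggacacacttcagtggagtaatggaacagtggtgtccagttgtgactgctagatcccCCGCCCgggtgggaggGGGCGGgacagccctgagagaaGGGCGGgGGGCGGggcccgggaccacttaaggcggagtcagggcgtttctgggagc
Ihh: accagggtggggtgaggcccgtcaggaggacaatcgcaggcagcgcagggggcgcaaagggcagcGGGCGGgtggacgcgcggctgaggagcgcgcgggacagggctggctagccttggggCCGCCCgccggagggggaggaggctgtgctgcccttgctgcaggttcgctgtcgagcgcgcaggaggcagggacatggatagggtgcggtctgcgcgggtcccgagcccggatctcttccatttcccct
The Dhh window held 4 GC boxes, which began 94, 78, 56 and 49 bases before the start. The Ihh window held 2, at 185 and 129 bases. A GC box stood in 7 of the 8 Hedgehog windows found in the table and in 32.7% of 32851 RefSeq windows of this length; Smo had none, and Gli1 had no entry. The GC content was 59.6% for Dhh and 72% for Ihh, with a median of 52.4% over all windows. None of the 8 windows held the letters of a palindromic estrogen response element (GGTCA and TGACC with 3 bases between them, in 0.0639% of all windows), of a Gli site (GACCACCCA, in 0.225%) or of the core of the NR5A element (AAGGTCA, in 4.08%), searched on both strands. This says only that these letters are not in these windows. By ChIP-seq the study found ERβ bound in an intron of Dhh, which these windows do not cover.

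Ihh (Indian hedgehog, ENSMUSG00000006538, chromosome 1 from 74945315 to 74951672) is the other ligand of granulosa cells. It was at 5.66, 4.52, 6.71, 6.90 and 4.94 FPKM in WT ovaries. The ERβKO ovaries had 5.77, 5.02, 7.23 and 2.63 FPKM. The ranges overlapped, with both the highest and the lowest of the 9 values in ERβKO ovaries, in replicates 3 and 4. The log2 fold change was -0.15 (95% interval -0.71 to 0.42) (adjusted p = 0.795, edgeR), so that a fall or a rise of modest size lies within the interval. The third ligand of the family, Shh, had at most 1 count in a library.

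The ligands traded places in the order of their FPKM. Ihh was above Dhh in 5 of 5 WT ovaries, and Dhh was above Ihh in 4 of 4 ERβKO ovaries. That order depends on the gene lengths behind the FPKM, and part of the exon length of Dhh is shared with other genes. The ratio of Dhh to Ihh, both in FPKM, was between 0.412 and 0.863 in WT and between 1.35 and 3.38 in ERβKO ovaries. On a log2 scale with 0.1 FPKM added, this ratio was higher by 1.49 in ERβKO ovaries (two-sided exact permutation test, p = 0.0159, n = 5 and 4). Dhh made up 29.2 to 46.3% of the summed FPKM of both ligands in WT and 57.5 to 77.2% in ERβKO ovaries. The sum itself was 9.58 ± 1.8 FPKM in WT against 14.2 ± 2.3 FPKM in ERβKO ovaries (mean ± SD, n = 5 and 4), and its ranges overlapped, since WT replicate 3 had 12.5 and ERβKO replicate 4 had 11.5 FPKM.

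**Figure D1:**
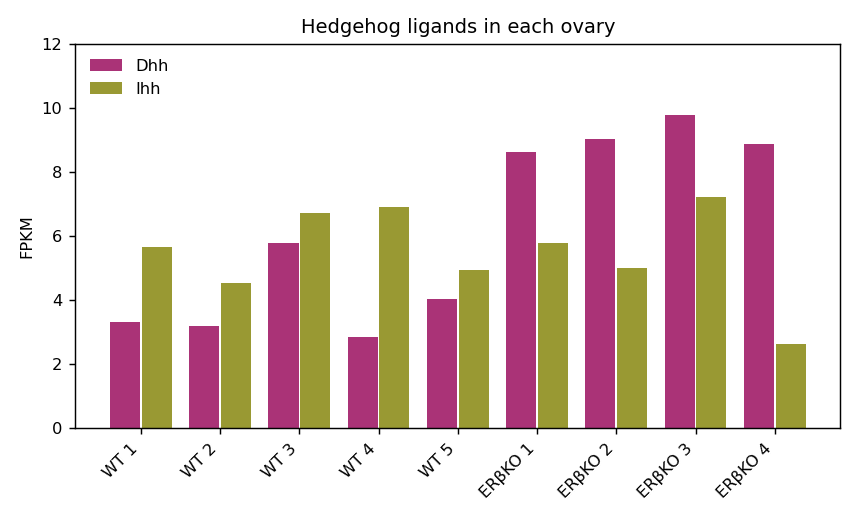
FPKM of Dhh and Ihh (vertical axis) in each of the 9 ovaries (horizontal axis), 1 bar per gene and ovary. Ihh is the taller bar in all 5 WT ovaries and Dhh in all 4 ERβKO ovaries, where Dhh lies between 8.64 and 9.79 FPKM.

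Markers of granulosa and Sertoli cells, which are known to make Dhh, were compared between genotypes in the same way. Of the 12 granulosa markers 4 were called, all as higher in ERβKO ovaries, beside 0.915% of all genes called as higher, and none was lower. Their summed level was 611 to 770 FPKM in WT against 854 to 1166 FPKM in ERβKO ovaries, without overlap. Inhbb, which encodes an inhibin and activin subunit, rose most among those called, with a log2 fold change of 1.09 (adjusted p = 0.00883, edgeR). Of the 8 Sertoli markers 6 were tested, 4 with a positive and 2 with a negative log2 fold change. Gata1 was called as higher (beside the same 0.915%), at 1.16 to 1.61 FPKM in WT against 3.02 to 4.73 FPKM in ERβKO ovaries. The summed Sertoli markers were 8.81 to 11.5 FPKM in WT against 13.8 to 16.7 FPKM in ERβKO ovaries, again without overlap. Sox9 had a log2 fold change of 0.77 and Cldn11 one of 0.87 (adjusted p = 0.179 and 0.0904, edgeR). Dmrt1, of the same list, had at most 3 counts in a library. Of the 12 Schwann markers 7 were tested. Mbp fell by 0.95 on the log2 scale (adjusted p = 0.0353, edgeR), while the defining genes Sox10, Cdh19 and Foxd3 had at most 6, 10 and 3 counts. In whole ovaries, more cells of a type and more RNA per cell cannot be told apart. The part of granulosa and Sertoli markers in the rise of Dhh was not tested.

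Ptch1 and Hhip bind the ligands and are themselves target genes of the pathway. Ptch1 (ENSMUSG00000021466, chromosome 13 from 63508328 to 63573598) was at 13.9, 12.3, 19.6, 16.4 and 12.6 FPKM in WT ovaries. The 4 ERβKO values were 17.6, 15.4, 10.7 and 18.9 FPKM. The ranges overlapped over most of their length, with WT replicate 3 highest and ERβKO replicate 3 lowest. The log2 fold change was 0.03 (95% interval -0.33 to 0.39) (adjusted p = 0.933, edgeR).

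Hhip (ENSMUSG00000064325, chromosome 8 from 79966115 to 80058006) encodes a membrane protein that binds Hedgehog ligands and lowers the signal. It was at 1.71, 1.12, 2.05, 2.37 and 1.00 FPKM in WT ovaries. In ERβKO ovaries it was at 1.17, 2.37, 1.49 and 1.55 FPKM. The groups overlapped throughout, on 79 to 176 counts per library. Its log2 fold change of -0.06 had a 95% interval from -0.59 to 0.46 (adjusted p = 0.911, edgeR), which runs from 0.665-fold to 1.38-fold.

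Smo (ENSMUSG00000001761, chromosome 6 from 29735503 to 29761365), the membrane protein that Ptch1 holds inactive, had the highest level of the 9 genes in every ovary. It was at 30.6, 27.6, 31.5, 32.9 and 28.3 FPKM in WT ovaries. The ERβKO ovaries had 34.7, 34.3, 29.2 and 33.8 FPKM. Of the ERβKO ovaries 3 lay above all WT ovaries and replicate 3 lay within their range. The log2 fold change was 0.11 (95% interval -0.04 to 0.26) (adjusted p = 0.402, edgeR). Sufu (ENSMUSG00000025231, chromosome 19 from 46396896 to 46488804), which binds Gli proteins in the cytoplasm, ranged from 6.69 to 7.62 FPKM in WT and from 6.92 to 8.59 in ERβKO ovaries. Its log2 fold change was 0.05 (95% interval -0.12 to 0.22; adjusted p = 0.773, edgeR).

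Gli1 (ENSMUSG00000025407, chromosome 10 from 127329889 to 127341589) is the Gli factor whose own transcription follows the signal, and it is commonly read as the output of the pathway. It was at 5.81, 5.05, 7.19, 4.66 and 3.86 FPKM in WT ovaries. In ERβKO ovaries it was at 6.03, 6.86, 4.03 and 6.55 FPKM. The highest and the lowest value of Gli1 were both in WT ovaries. The log2 fold change was 0.12 (95% interval -0.27 to 0.51) (adjusted p = 0.748, edgeR). Of its exon length 6.55% is shared with genes on the other strand.

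Gli2 (ENSMUSG00000048402, chromosome 1 from 118834132 to 119053619) is mainly an activator and Gli3 (ENSMUSG00000021318, chromosome 13 from 15463235 to 15730026) mainly a repressor of target genes. Gli2 ranged from 1.91 to 2.51 FPKM in WT and from 2.07 to 2.45 in ERβKO ovaries. Gli3 was the lowest of the 9 genes on average, from 0.704 to 1.19 FPKM in WT and from 0.963 to 1.13 in ERβKO ovaries. For both genes the ERβKO range lay within the WT range. Their log2 fold changes were 0.03 (95% interval -0.17 to 0.23) for Gli2 and 0.02 (95% interval -0.32 to 0.35) for Gli3, and neither was called.

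**Figure D2:**
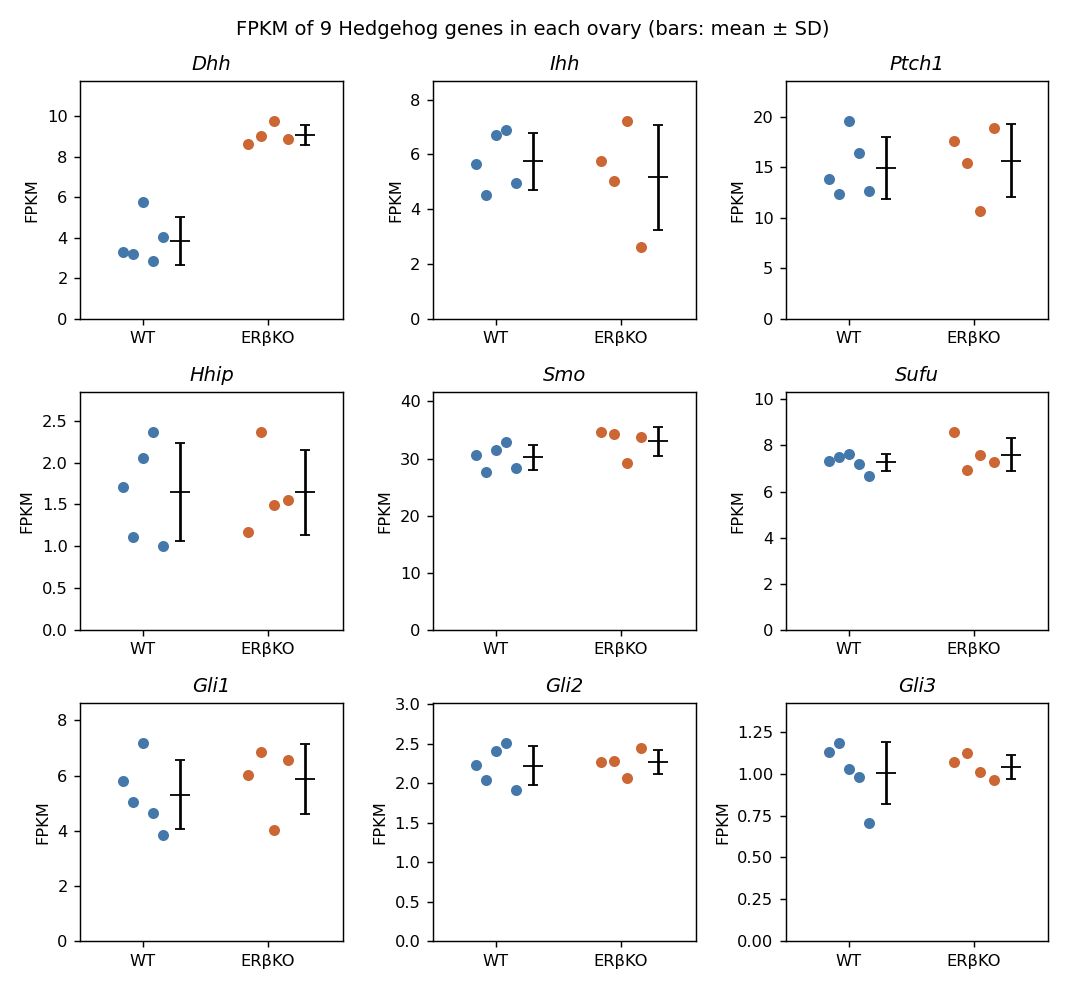
FPKM (vertical axis, from 0) of the 9 Hedgehog genes in the 5 WT and 4 ERβKO ovaries, 1 point per ovary, with the mean and SD beside each group. The groups separate for Dhh, from 2.84 to 5.79 against 8.64 to 9.79 FPKM, and overlap for the other 8 genes.

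**Figure D3:**
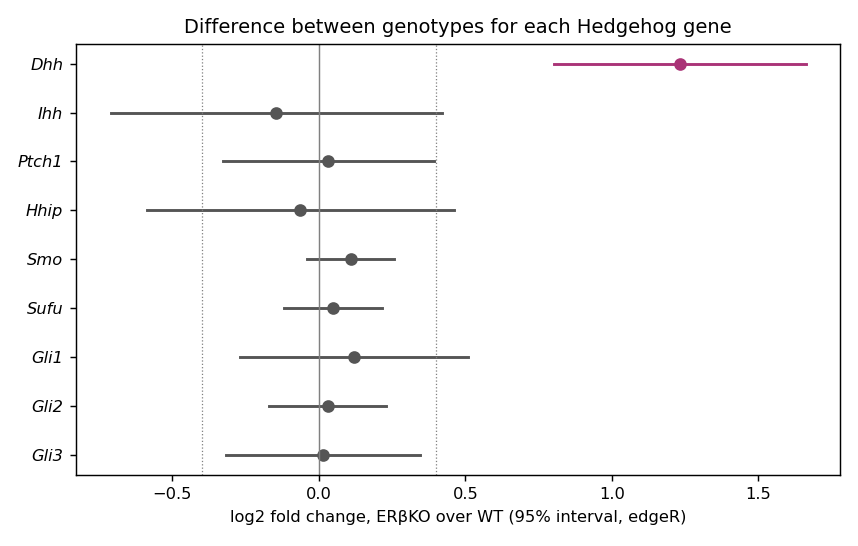
Log2 fold change, ERβKO over WT, of the 9 Hedgehog genes (points) with 95% intervals from edgeR (lines), and dotted lines at the size of 0.4 that a call requires. The interval of Dhh, 0.80 to 1.66, lies above 0.4, and the other 8 intervals hold 0.

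In WT ovaries the order of the mean levels per length was Smo, Ptch1, Sufu, Ihh, Gli1, Dhh, Gli2, Hhip and Gli3. In ERβKO ovaries it was Smo, Ptch1, Dhh, Sufu, Gli1, Ihh, Gli2, Hhip and Gli3. Dhh moved from the place below Gli1 to the place above Sufu. Smo lay above Ptch1 without overlap in both genotypes, and so did Ptch1 above the gene that followed it. In ERβKO ovaries the ranges of Dhh and Sufu did not overlap either. Neighbours with overlapping ranges in WT ovaries were Sufu and Ihh, Ihh and Gli1, Gli1 and Dhh, Gli2 and Hhip, and Hhip and Gli3, and in ERβKO ovaries Gli1 and Ihh, and Gli2 and Hhip.

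The comparison of ligands with target genes asks whether a ligand of granulosa cells and the genes that respond to it changed to the same extent. For each of 6 pairs the difference in log2 CPM (counts scaled to the size of the library) between ligand and target was taken per ovary and compared between genotypes with a two-sided exact permutation test, with Benjamini-Hochberg adjustment over the 6. The ratio of Dhh to its targets was higher in ERβKO ovaries, by 1.15 for Gli1, by 1.25 for Ptch1 and by 1.31 for Hhip, all on the log2 scale. Each of these ratios was higher in 4 of 4 ERβKO ovaries than in any of the 5 WT ovaries (p = 0.0159, adjusted p = 0.0317, exact permutation test). The 3 tests share the values of Dhh and are not independent. The ratio of Ihh to Gli1 differed by -0.36, that to Ptch1 by -0.26 and that to Hhip by -0.20, with overlapping groups and adjusted p from 0.686 to 0.714 (exact permutation test, n = 5 and 4). The spread of the Ihh ratios was uneven. The SD of the Ihh to Ptch1 log2 ratio was 0.09 over the WT ovaries and 0.94 over the ERβKO ovaries, where replicate 3 was the highest and replicate 4 the lowest of all 9 ovaries.

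**Figure D4:**
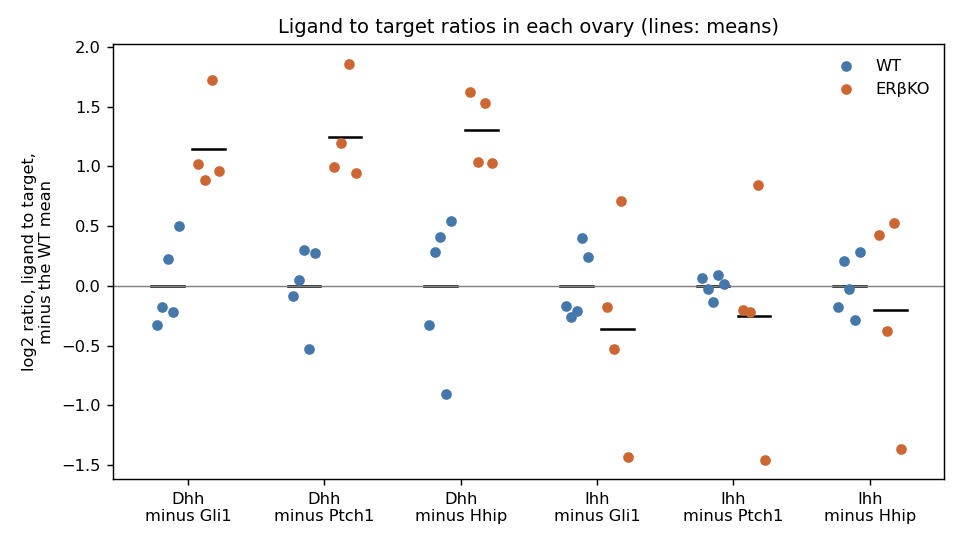
Log2 ratio of each ligand to each target gene in CPM, minus the WT mean of that pair (vertical axis), for 6 pairs (horizontal axis), with 1 point per ovary and lines at the means. The 3 pairs with Dhh have ERβKO means of 1.15 to 1.31 and no overlap with WT, and the 3 pairs with Ihh overlap.

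Within a genotype, the ligands did not move with the targets in a way that these ovaries could resolve. Deviations from the genotype mean in log2 CPM were correlated over the 9 ovaries, with p-values from all 2880 rearrangements of the ovaries within their genotype (two-sided exact permutation test), for 9 relations in all. Between Dhh and its targets Pearson's r was 0.33 for Gli1 (p = 0.475), 0.26 for Ptch1 (p = 0.522) and 0.03 for Hhip (p = 0.968, exact permutation tests). Spearman's rho was 0.15 (p = 0.725), 0.13 (p = 0.759) and 0.05 (p = 0.924). Without WT replicates 3 and 4, the ovaries farthest from the median of Dhh, r turned to -0.69 for Gli1 and -0.24 for Ptch1 and was 0.07 for Hhip, so that the positive values for Gli1 and Ptch1 rest on those ovaries.

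For Ihh, r was -0.27 with Gli1 (p = 0.501), -0.31 with Ptch1 (p = 0.531) and 0.03 with Hhip (p = 0.946, exact permutation tests). Spearman's rho was -0.13 (p = 0.763), 0.03 (p = 0.949) and 0.35 (p = 0.349). Without ERβKO replicates 3 and 4, the ovaries farthest from the median of Ihh, r became 0.42, 0.94 and 0.62. These values were not tested, and the ovaries left out were chosen by their Ihh values. In those 2 ovaries Ihh and Ptch1 lay on opposite sides, with Ihh at 7.23 and 2.63 FPKM and Ptch1 at 10.7 and 18.9 FPKM.

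Among the targets themselves, Gli1 and Ptch1 had an r of 0.73 (p = 0.0448) and a rho of 0.73 (p = 0.05, exact permutation tests), with adjusted p of 0.403 and 0.3 over the 9 relations. Without WT replicate 5 and ERβKO replicate 3 that r was 0.49. For Hhip, r was 0.41 with Gli1 (p = 0.310) and 0.51 with Ptch1 (p = 0.177), rho was 0.47 (p = 0.230) and 0.67 (p = 0.0667), and without the 2 farthest ovaries r was 0.21 and 0.57 (exact permutation tests). After adjustment none of the 9 relations passed 0.05, by either measure.

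The genes whose deviations within genotype were most like those of a Hedgehog gene were looked up among 14178 genes, over 9 ovaries, as a description. For Dhh they were Pop1, Snx7 and Tpi1, with r from 0.94 to 0.96. For Ptch1 they were Ube2t, Rfc3 and Wdhd1, with r from 0.97 to 0.98. For Gli1 they were Enpp1, Sorcs2 and Dmtf1, for Ihh Sec14l1, Opn3 and Lars2, and for Hhip Setd1a, Gm28043 and 2700062C07Rik, with r from 0.90 to 0.98. None of these 15 genes was called between genotypes, beside 1.72% of all genes, a share at which 15 genes would mostly hold no call. With 9 ovaries and so many genes searched, values of this size are the top of a long list.

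The other genes of the pathway were 68 in number, in 5 roles, of which 65 had a row under their symbol and 59 were tested. The single call was Boc, higher in ERβKO ovaries, beside 1.72% of all genes. The median log2 fold change of the 59 genes was 0.01, and that of all genes tested was -0.00089. At an unadjusted p under 0.05, 16 of the 59 (27.1%) differed, 9 higher and 7 lower, beside 19.8% of all genes.

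Boc encodes a membrane co-receptor that binds Hedgehog ligands together with Ptch1. It was at 5.38, 5.58, 6.43, 5.95 and 5.00 FPKM in WT ovaries. The 4 ERβKO values were 8.70, 10.3, 10.3 and 7.75 FPKM. The groups did not overlap, as was found in either direction for 7.61% of all genes. Boc rose by 0.67 on the log2 scale (SE 0.10), and its adjusted p was 0.0139 in edgeR's test and 3.34e-06 in DESeq2. Without ERβKO replicate 2 the adjusted p was 0.0550 in edgeR and the call ended. The other co-receptors were not called. Gas1, a co-receptor anchored by a lipid, was at 22.7 ± 2.7 FPKM in WT against 18.5 ± 1.8 FPKM in ERβKO ovaries (mean ± SD; adjusted p = 0.136, edgeR), and Cdon, the relative of Boc, had a log2 fold change of 0.18. Mgrn1, a ubiquitin ligase that acts on Smo, had a log2 fold change of 0.15 (adjusted p = 0.212, edgeR).

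Of the 6 tested genes for making and releasing ligand none was called by edgeR, and 5 of the 6 had a negative log2 fold change. Scube2, whose product helps to release lipid-bearing Hedgehog from the cell, was at 2.58, 2.33, 3.78, 2.41 and 2.59 FPKM in WT ovaries. Among ERβKO ovaries the values were 2.17, 1.35, 1.78 and 1.65 FPKM, below every WT ovary. Its log2 fold change of -0.71 (SE 0.18) had an adjusted p of 0.0736 in edgeR and 0.00751 in DESeq2, which called it. Hhat, the enzyme that adds palmitate to the ligands, had a log2 fold change of -0.30 (adjusted p = 0.238, edgeR). Scube3 had one of -0.71 (SE 0.38; adjusted p = 0.329, edgeR), and WT replicate 3 alone was at 2.59 FPKM.

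Of 13 tested genes of the cilium and the relay from Smo, 10 had a positive log2 fold change and none was called. Evc2, which forms a complex with Smo at the base of the cilium, was at 18.1 ± 2.6 FPKM in WT against 23.5 ± 2.3 FPKM in ERβKO ovaries (adjusted p = 0.177, edgeR). Its groups did not overlap, beside the 7.61% of all genes. Among the tested pathway genes this also held for Boc, which was higher, and for Scube2, Gas1, Csnk1a1 and Csnk1g3, which were lower. Iqce, a partner of that complex, and Ift172, a part of the transport machinery of the cilium, had log2 fold changes of 0.18 and 0.23 (adjusted p = 0.174 and 0.182, edgeR).

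Of 24 tested kinases and genes of Gli processing none was called by edgeR. The smallest p-values were those of Csnk1a1, a casein kinase at 75.6 ± 4.1 FPKM in WT against 64.9 ± 2.9 FPKM in ERβKO ovaries (log2 fold change -0.21, adjusted p = 0.0998, edgeR), of Prkaca, a catalytic subunit of protein kinase A (log2 fold change -0.39, adjusted p = 0.110), and of Csnk1g3 (log2 fold change -0.18, adjusted p = 0.186). Of 8 tested genes that have been reported as targets in other tissues none was called by edgeR. The cyclin gene Ccnd2 had a log2 fold change of 0.53 (adjusted p = 0.148, edgeR). Osr1, at 1.11 ± 0.39 FPKM in WT against 2.04 ± 0.40 FPKM in ERβKO ovaries, had one of 0.87 (adjusted p = 0.116 in edgeR and 0.0409 in DESeq2, which called it). Myf5 was below 1 FPKM in every ovary, with a log2 fold change of -1.0 (adjusted p = 0.289, edgeR).

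**Figure D5:**
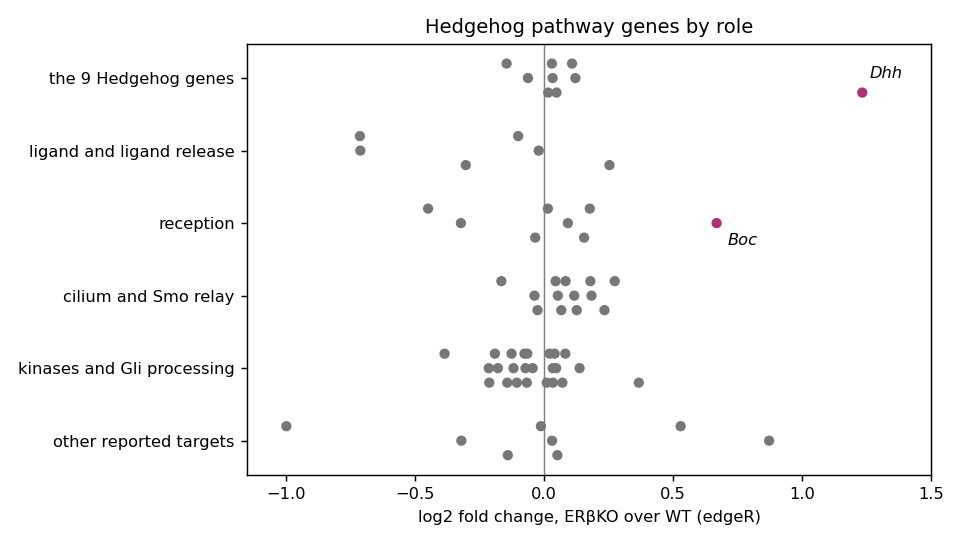
Log2 fold change, ERβKO over WT, from edgeR (horizontal axis) of the 9 Hedgehog genes and of 59 other pathway genes, in rows by role and 1 point per gene. The coloured points are the called genes, Dhh at 1.23 and Boc at 0.67, and the points within a row are spread vertically for legibility only.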

How the data were processed

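Per the labels and the methods of the study, libraries were stranded and made from poly-A selected RNA. The authors mapped paired reads with STAR to GRCm38 (mm10 in the labels), counted fragments per gene with FeatureCounts and estimated abundance with StringTie. The deposited counts are raw, and the deposited FPKM values are the authors' StringTie estimates, scaled for gene length and depth. Replicates were not pooled, and p-values measure the spread between these 9 mice.

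Counts were filtered with filterByExpr, normalized by TMM and fitted with genotype as the factor in edgeR 4.0.16 (quasi-likelihood test, R 4.3.3), where the study used DESeq2 (1.42.0 here). Standard errors come from the log2 fold change and its F statistic. Log2 CPM used a prior count of 2. For 17 genes with several FPKM rows the values were summed. FPKM were also tested with limma 3.58.1 after adding 1 or 0.1. The edgeR, DESeq2 and limma fits were also run on simulated counts. There all genes shared a single spread between replicates and all changed genes a single size of change, a simpler case than these data.

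The Hedgehog genes, the pathway list, the marker lists and the tests were chosen with earlier results of these data known, and the correlations and the ratio of Dhh to Ihh were added after values were seen. Named pathway genes are those called, up to 3 per role with the smallest unadjusted p, and Cdon and Shh, chosen after their values were seen. Marker lists covered 13 cell types or states. A few single genes of the lists are left out of the text. Sequences were read from RefSeq, where 8 of 9 symbols matched.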

Additional observations from a re-analysis of the deposited data

Results flagged for a closer look

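Smo was at 29.2 FPKM in ERβKO replicate 3, while the other 3 ERβKO ovaries were at 33.8 to 34.7 FPKM, so that 0.841 of the range of the group was the gap to this ovary. Each of the 9 Hedgehog genes was examined in both genotypes, 18 groups in all, and this was the 1 group with a sample far from the others; chance gives about 1 in 20. The same ovary was the lowest of the ERβKO group for Ptch1 (10.7 FPKM), Gli1 (4.03 FPKM) and Gli2 (2.07 FPKM) and the highest for Dhh (9.79 FPKM) and Ihh (7.23 FPKM). Without it the log2 fold change of Smo was 0.15 and that of Dhh 1.18.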

How the results depend on the processing

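Dhh was called in 16 of 19 alternatives, with a log2 fold change of 1.09 to 1.44 and an adjusted p of 7.78e-07 to 0.0875; with an ovary left out the log2 fold change was 1.14 to 1.44. It was not called without ERβKO replicate 2 or 4, nor with the libraries numbered below 200, which leave out WT replicates 4 and 5 (1.13, adjusted p = 0.0875). The other 8 Hedgehog genes were not called in any of 152 fits. With the libraries numbered below 200, 0 Hedgehog and 0 other pathway genes were called, of 51 in all, by edgeR, and the log2 ratios of Dhh to Gli1, Ptch1 and Hhip were 1.24, 1.16 and 1.18, at the smallest p that 3 against 4 ovaries allow, 0.0571 (exact permutation test). Dhh rests on 141 to 587 counts per library and Hhip on 79 to 176.

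Over all genes, 287 were called in edgeR, 802 with DESeq2, 39 with limma without a filter, and 60 to 919 with an ovary left out (without ERβKO replicate 2 and without WT replicate 2). Hedgehog calls then numbered 0 to 1 and other pathway calls 0 to 4. DESeq2 called 3 other pathway genes (Boc, Scube2 and Osr1) and limma without a filter called 0. The cause of these differences was not tested.

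No pairing by replicate number was seen: same-numbered ovaries had correlations of deviations of 0.09, 0.13, -0.04 and -0.01, and none was closest to its own number. These values were not tested and do not exclude a pairing. With the replicate block 155 genes were called, Dhh among them (1.31, adjusted p = 0.0309, edgeR).

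Log2 fold changes near 0 changed sign. With the replicate block they were -0.0072 for Ptch1, -0.0011 for Gli2 and -0.087 for Gli3. With the libraries numbered below 200 they were -0.045 for Gli1 and -0.14 for Gli3. With limma, Hhip was at 0.0098 with 1 added, with or without a filter, and 0.026 with 0.1 added. With an ovary left out the ranges were -0.38 to 0.086 for Ihh, -0.060 to 0.17 for Ptch1, -0.0037 to 0.065 for Gli2, -0.088 to 0.076 for Gli3, -0.18 to 0.080 for Hhip and -0.0058 to 0.10 for Sufu. The log2 ratios to Gli1, Ptch1 and Hhip then ranged from 0.96 to 1.27, 1.05 to 1.35 and 1.08 to 1.44 for Dhh, at the smallest p each split allows (0.0286 or 0.0357, exact permutation test; adjusted 0.0536 to 0.0714), and from -0.72 to 0.0004, -0.63 to 0.14 and -0.44 to 0.19 for Ihh. Without ERβKO replicate 3 the ratio of Ihh to Ptch1 had an exact p of 0.0357, adjusted 0.0536.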

Other observations

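Of 7 tested theca markers 3 had a positive and 4 a negative log2 fold change, with a median of -0.0057. Aldh1a1 was called, higher in ERβKO ovaries (log2 fold change 1.05, adjusted p = 0.0139, edgeR), and the summed theca markers overlapped, at 796 to 1044 FPKM in WT against 1011 to 2030 FPKM in ERβKO ovaries. Cyp17a1, the theca enzyme of androgen synthesis, was at 1.82 to 128 FPKM in WT against 50.0 to 472 FPKM in ERβKO ovaries. Its log2 fold change was 2.35 (SE 0.94, adjusted p = 0.205, edgeR). Mgarp was at 181 ± 59 FPKM in WT against 108 ± 26 FPKM in ERβKO ovaries (mean ± SD), a log2 fold change of -0.79 (adjusted p = 0.132, edgeR). Of 8 stromal markers Pdgfrb was called as lower (log2 fold change -0.59, adjusted p = 0.0487, edgeR), with summed levels of 571 to 952 and 762 to 817 FPKM. Dcn had a log2 fold change of 0.32 (adjusted p = 0.0672, edgeR), from 317 to 406 FPKM in WT and from 408 to 487 FPKM in ERβKO ovaries, without overlap, and Tcf21, which is in both lists, one of 0.36 (adjusted p = 0.173, edgeR). Over the 8 genes 3 values were positive and 5 negative.

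No gene was called by edgeR among the markers of luteal cells (8 tested), smooth muscle (6), endothelium (7), oocytes (6), oviduct epithelium (6), surface epithelium (6), adipocytes (5) and dividing cells (5). At an unadjusted p under 0.05 the counts were 4, 0, 1, 0, 1, 2, 5 and 0 in that order, beside 19.8% of all genes. The 4 luteal markers were lower and the 5 adipocyte markers higher in ERβKO ovaries, and the summed levels of both lists overlapped between genotypes.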
